A study of Homo sapiens with 10 samples.

Results

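DNA replication machinery was followed across 51 listed genes whose products license origins, unwind DNA, synthesise and join new strands, supply nucleotides and rebuild chromatin behind the fork. A gene was measured where the platform annotation gave a row of the array table exactly 1 symbol, and the row with the highest mean stood for the gene where there were several. This left 46 of the 51 genes, each with 1 such row, out of 14232 genes measured in this way and 22011 rows in all. The list was drawn up by function and no measured value entered its rule, but it was chosen with earlier results of these data known. RNA came from SH-SY5Y cells, an established line from a human neuroblastoma used as a model of sympathetic neuroblasts. The groups were 5 arrays from cells treated with paraquat (numbered 8, 12, 14, 18 and 20 in the sample titles) and 5 arrays from control cells, labelled ctrl (7, 11, 13, 17 and 19). Both groups are of the same cell line, and no genotype, dose or duration is given in the sources used here. Paraquat, a herbicide, is reduced and reoxidised over and over inside cells, which produces superoxide. Whether each array stands for a culture of its own is not stated, so p-values here measure only how far these arrays differ, and that may be technical.

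Before a cell copies its DNA, the origin recognition complex, CDC6 and CDT1 load rings of MCM proteins onto origins, a step called licensing that geminin (GMNN) blocks once replication has begun. In S phase CDC45 and the GINS complex turn the MCM ring into a running helicase, polymerase alpha with primase lays down primers, and polymerases delta and epsilon extend them while held on DNA by the PCNA clamp. Many of these genes are known targets of E2F transcription factors and are transcribed mainly in cycling cells.

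After paraquat, genes of the replication machinery fell, and most of all RRM2, UHRF1 and GMNN. RRM2, the small subunit of ribonucleotide reductase, fell 3.29-fold. UHRF1, which guides maintenance of DNA methylation at the fork, fell 2.64-fold, and GMNN fell 2.47-fold. Of the 46 measured genes, 27 were lower and 0 were higher in paraquat-treated cells at an adjusted p under 0.05, from a limma model per row with Benjamini-Hochberg adjustment over all rows. Among all rows the same test called 20.0% in either direction, 11.5% lower and 8.51% higher. Of the 19 genes that did not pass, 16 had a negative change. The median log2 change over the 46 genes was -0.59, against 0.00 over all rows, where a log2 change of -1 is a halving of the signal. In 26 of the 46 genes every paraquat array lay below every ctrl array, which was so in 9.22% of all rows. In 0 of the 46 genes did every paraquat array lie above every ctrl array, against 7.01% of all rows. Decreases of at least 2-fold that passed the test were limited to RRM2, UHRF1 and GMNN, that is to 3 of 46 genes, and made up 1.83% of all rows. In RNA from whole cultures, fewer cells in S phase and less RNA per cell cannot be told apart.

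**Figure D1:**
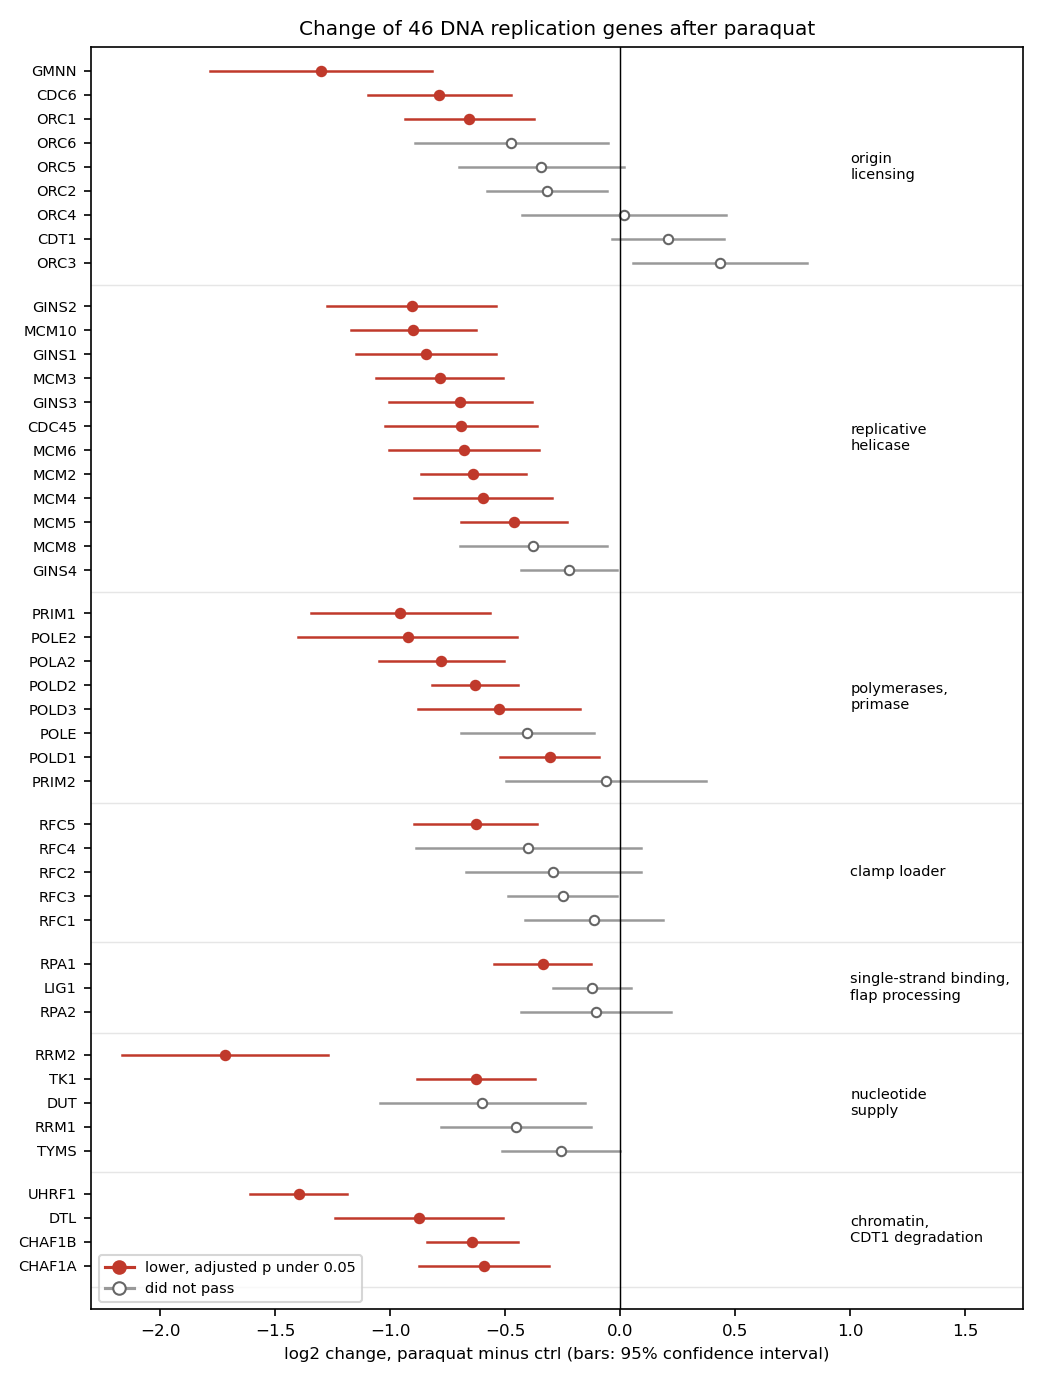
Log2 change of each of the 46 genes, paraquat minus ctrl, grouped by role (points, with 95% confidence intervals from limma as bars). Filled red points passed at an adjusted p under 0.05, and open points did not. All 4 genes of the chromatin group passed as lower, and 10 of 12 listed with the helicase. Among licensing genes 3 of 9 passed and among clamp loader genes 1 of 5, against 11.5% lower among all rows.

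Counts of genes that passed as lower were uneven across roles, against 11.5% lower among all rows. Of 12 measured genes listed with the helicase, MCM8 among them, 10 fell, with a median of -0.69. All 4 genes of replication-coupled chromatin and CDT1 degradation fell, with a median of -0.76. Of 8 genes of polymerases and primase 6 fell (median -0.58), and of 5 nucleotide supply genes 2 fell (median -0.60). Only 3 of 9 licensing genes passed (median -0.34), 1 of 5 genes of the clamp loader (median -0.29) and 1 of 3 genes of single-strand binding and flap processing (median -0.12). These counts depend on the cut-off. All 5 nucleotide supply genes had negative changes, and RRM1 and DUT just missed it (limma adjusted p = 0.052 and 0.0602). POLE just missed it too (0.0517). POLD1, POLD3 and RPA1 passed, but lost their calls when some single arrays were left out. The counts describe the roles, and no test between roles was run.

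The 300-base promoter windows of RefSeq (GRCh38.p14, 250 bases before to 50 after each transcription start) were searched for letters of the E2F type because most of these genes moved in the same direction. The letters were TTTCGCGC, TTTCGCGG, TTTGGCGC, TTTGGCGG and TTTCCCGC, on both strands, and overlapping matches were kept. At least 1 of them was present in 24 of the 41 measured genes that had a window (58.5%), against 4.51% of all 27305 genes with a window. That background holds every RefSeq gene with a window, measured on these arrays or not, so it is not matched to the 41 genes. The share was 62.5% (15 of 24) among genes that fell and 52.9% (9 of 17) among those that did not pass. CCAAT boxes, the letters of the factor NF-Y, were in the windows of 18 of 24 genes that fell (75.0%) and in 7 of 17 that did not pass (41.2%), against 39.7% of all genes. The letters TTTGAA, a form of the cell cycle homology region found in promoters of mitotic genes, were in 2 of 41 (4.88%) against 18.2% of all genes. Genes with several starts were counted once if any window matched, and a match describes the letters and says nothing of binding.

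Stretches of 100 bases that end just before a start are shown for 6 genes that fell and for 3 that did not pass, to show that the same letters occur in both. The genes and windows were chosen by hand, and the 3 that did not pass are among the 9 of 17 with an E2F-type match. GMNN is shown by the second of its 2 windows, and the first had 0 E2F-type matches and 0 CCAAT boxes. Capitals mark the E2F-type letters and CCAAT, read as ATTGG, GCGGGAAA and so on where they lie on the other strand. The first 6 fell, and CDT1, TYMS and ORC3 did not pass.
GMNN (chr6:24775313-24775412, plus strand): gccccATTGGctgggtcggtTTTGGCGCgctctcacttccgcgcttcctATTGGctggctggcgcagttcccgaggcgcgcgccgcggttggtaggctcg
UHRF1 (chr19:4909401-4909500, plus strand): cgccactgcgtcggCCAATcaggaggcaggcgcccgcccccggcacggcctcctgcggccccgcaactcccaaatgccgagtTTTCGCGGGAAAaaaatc
MCM6 (chr2:135876444-135876543, minus strand): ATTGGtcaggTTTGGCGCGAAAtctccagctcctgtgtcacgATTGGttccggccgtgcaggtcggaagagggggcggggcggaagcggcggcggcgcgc
CDC6 (chr17:40287779-40287878, plus strand): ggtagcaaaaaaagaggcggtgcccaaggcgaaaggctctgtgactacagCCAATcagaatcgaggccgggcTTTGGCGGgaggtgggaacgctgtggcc
POLA2 (chr11:65261862-65261961, plus strand): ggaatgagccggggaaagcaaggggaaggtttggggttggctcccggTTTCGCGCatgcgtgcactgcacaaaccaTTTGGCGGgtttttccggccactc
RRM2 (chr2:10122639-10122738, plus strand): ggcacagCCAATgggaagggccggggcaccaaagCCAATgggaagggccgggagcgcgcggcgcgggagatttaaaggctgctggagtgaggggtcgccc
CDT1 (chr16:88803689-88803788, plus strand): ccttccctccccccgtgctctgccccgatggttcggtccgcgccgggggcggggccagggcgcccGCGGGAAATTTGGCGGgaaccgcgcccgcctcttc
TYMS (chr18:657553-657652, plus strand): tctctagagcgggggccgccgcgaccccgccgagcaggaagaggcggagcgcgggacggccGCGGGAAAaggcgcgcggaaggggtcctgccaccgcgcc
ORC3 (chr6:87590035-87590134, plus strand): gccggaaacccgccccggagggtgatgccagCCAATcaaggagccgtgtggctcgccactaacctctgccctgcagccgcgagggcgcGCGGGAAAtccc
In UHRF1 and MCM6 the 2 E2F-type matches overlap, and in CDT1 they adjoin. RRM2, the gene with the largest decrease, had 0 E2F-type matches in this stretch and 2 CCAAT boxes, which says only that those letters are not in it.

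In origin licensing GMNN, CDC6 and ORC1 fell, and the other 6 genes did not pass. Array values are given below on the log2 scale in the order of the title numbers. GMNN (transcript cluster 2898597) read 7.57, 7.71, 7.61, 7.03 and 6.99 on the paraquat arrays, against 8.71, 9.42, 8.44, 8.43 and 8.40 on the ctrl arrays. The groups did not overlap, ctrl 11 was the highest array, and the change was -1.30 ± 0.22 (log2 change ± SE, adjusted p = 0.00166). CDC6, the ATPase that recruits CDT1 and the MCM ring, read 9.08, 9.11, 9.30, 8.78 and 8.62 on the paraquat arrays, against 9.63, 10.04, 9.81, 9.78 and 9.56 on the ctrl arrays. It fell by 0.79 ± 0.14 (adjusted p = 0.00239), again with no overlap between groups. ORC1, the subunit of the origin recognition complex whose level varies most over the cell cycle, read 7.11, 7.31, 7.68, 7.06 and 6.95 on the paraquat arrays, against 7.81, 7.92, 7.88, 7.94 and 7.84 on the ctrl arrays. Its ctrl arrays were close together (SD 0.05) and the paraquat arrays spread more widely (SD 0.29), and the change was -0.66 ± 0.13 (adjusted p = 0.00389).

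CDT1, the loading factor that GMNN binds, read 8.40, 8.64, 8.56, 8.48 and 8.42 on the paraquat arrays, against 7.98, 8.20, 8.55, 8.33 and 8.41 on the ctrl arrays. The groups overlapped and the change was 0.21 ± 0.11 (adjusted p = 0.243, 95% interval -0.04 to 0.45), so that a decrease of the size seen for GMNN lay outside its interval. Without ctrl 7 the change of CDT1 was 0.13. The remaining subunits of the origin recognition complex did not pass. ORC2, ORC5 and ORC6 had changes of -0.32, -0.34 and -0.47 (adjusted p = 0.0849, 0.185 and 0.114), and that of ORC6 was -0.31 without ctrl 11. ORC4 read 8.33, 8.28, 8.68, 7.87 and 8.27 on the paraquat arrays, against 8.35, 8.92, 8.08, 8.20 and 7.81 on the ctrl arrays. Its groups overlapped, the change was 0.02 with an interval of -0.43 to 0.46, and with 1 array left out it lay between -0.10 and 0.18. ORC3, another subunit, had the most positive change, and its array values are given because of that, after they were seen. It read 9.29, 8.84, 9.52, 8.96 and 8.94 on the paraquat arrays, against 8.72, 9.17, 8.53, 8.60 and 8.36 on the ctrl arrays. Ctrl 11 lay inside the range of the paraquat arrays, and the change was 0.43 ± 0.17 (adjusted p = 0.107). Without ctrl 11 ORC3 passed as higher (0.56, adjusted p = 0.0219). ORC2 passed as lower without paraquat 14 (-0.42, adjusted p = 0.0117).

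Of the ring subunits MCM2 to MCM6, all 5 passed, with changes between -0.79 for MCM3 and -0.46 for MCM5. MCM3 read 8.59, 8.78, 9.13, 8.51 and 8.64 on the paraquat arrays, against 9.64, 9.42, 9.48, 9.34 and 9.68 on the ctrl arrays. MCM2, MCM4 and MCM6 had changes of -0.64, -0.60 and -0.68 (adjusted p = 0.00128, 0.00983 and 0.00733), and in each of the 5 genes the groups did not overlap. MCM7, the sixth ring subunit, had no row of its own. A row assigned to MCM7 together with the microRNA genes MIR106B, MIR25 and MIR93 averaged 10.63 ± 0.11 in paraquat-treated cells and 11.20 ± 0.11 in ctrl cells (SD, n = 5 each) and had a change of -0.57 ± 0.09 (adjusted p = 0.000845), which cannot be attributed to 1 of these genes.

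Of the factors that turn the ring into a helicase, 5 of 6 fell. MCM10, which is needed to start unwinding, read 8.76, 8.55, 8.77, 8.16 and 8.31 on the paraquat arrays, against 9.41, 9.40, 9.41, 9.48 and 9.34 on the ctrl arrays. Its ctrl values lay close together, and it fell by 0.90 ± 0.12 (adjusted p = 0.00043). GINS2 read 6.64, 6.88, 6.88, 6.44 and 6.55 on the paraquat arrays, against 7.30, 8.17, 7.58, 7.55 and 7.31 on the ctrl arrays. Ctrl 11 was the highest ctrl array, the groups did not overlap, and the change was -0.91 ± 0.17 (adjusted p = 0.00285). GINS1 read 8.69, 8.49, 8.71, 8.28 and 8.17 on the paraquat arrays, against 9.18, 9.65, 9.17, 9.41 and 9.14 on the ctrl arrays, a change of -0.84 ± 0.14 with no overlap (adjusted p = 0.0014). CDC45 and GINS3 fell by 0.69 and 0.70 (adjusted p = 0.00711 and 0.00503). GINS4, the fourth subunit of the same complex, read 8.29, 7.97, 8.36, 8.42 and 8.28 on the paraquat arrays, against 8.44, 8.51, 8.56, 8.53 and 8.40 on the ctrl arrays, and its change of -0.22 ± 0.09 did not pass (adjusted p = 0.131). MCM8, which works with MCM9 in repair by homologous recombination and is not part of the replicative ring, had a change of -0.38 ± 0.15 (adjusted p = 0.098), and passed without paraquat 14 (-0.47, adjusted p = 0.0365).

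**Figure D2:**
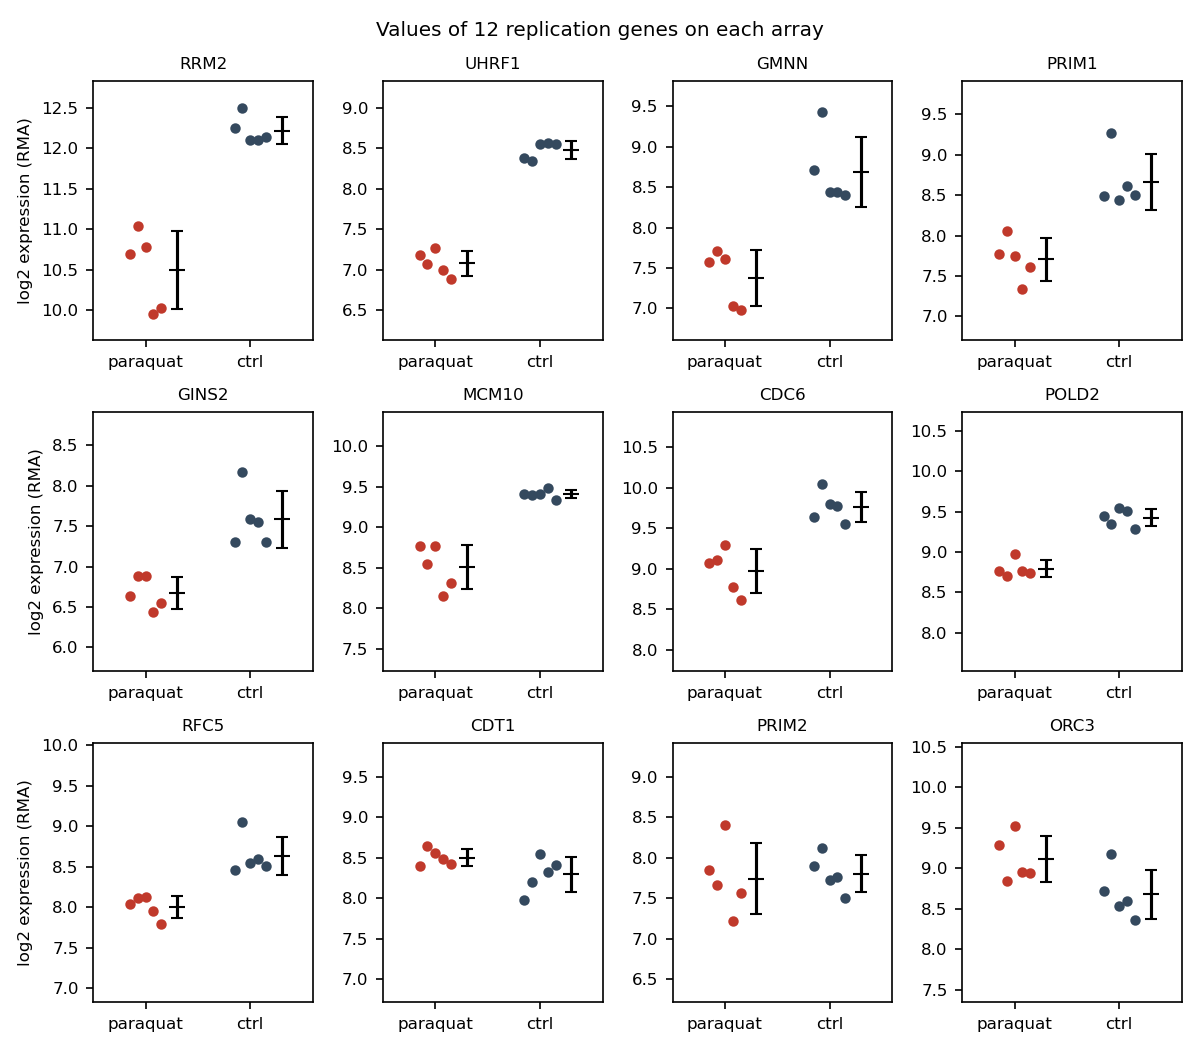
Log2 expression of 12 genes on each array, paraquat left of ctrl, with the mean and SD of the 5 arrays as black bars. Each panel spans the same number of log2 units. The groups are separate in the first 9 genes, from RRM2 to RFC5, and overlap in CDT1, PRIM2 and ORC3.

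Among the polymerases and primase, PRIM1, POLE2 and POLA2 had the largest decreases. PRIM1, the catalytic subunit of primase, read 7.78, 8.05, 7.75, 7.34 and 7.61 on the paraquat arrays, against 8.49, 9.27, 8.44, 8.61 and 8.50 on the ctrl arrays, and fell by 0.96 ± 0.18 (adjusted p = 0.00292). PRIM2, the regulatory subunit of the same enzyme, read 7.85, 7.67, 8.40, 7.22 and 7.56 on the paraquat arrays, against 7.89, 8.12, 7.73, 7.76 and 7.51 on the ctrl arrays. The ctrl arrays all lay inside the range of the paraquat arrays, and the change was -0.06 ± 0.20 (adjusted p = 0.885, interval -0.50 to 0.37), or between -0.23 and 0.07 with 1 array left out. RefSeq lists a pseudogene of PRIM2, PRIM2BP, and whether its transcripts reach these probes was not tested. POLE2, the second subunit of polymerase epsilon, read 6.27, 6.32, 6.34, 5.62 and 5.82 on the paraquat arrays, against 6.93, 7.71, 6.73, 7.02 and 6.61 on the ctrl arrays, a change of -0.93 ± 0.22 (adjusted p = 0.0108). For POLE, its catalytic subunit, the change of -0.40 ± 0.13 did not pass (adjusted p = 0.0517), and POLE passed without ctrl 11 (-0.49, adjusted p = 0.0137) or without paraquat 14 (-0.47, adjusted p = 0.0346).

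POLA2, the second subunit of polymerase alpha, read 8.51, 8.19, 8.50, 7.99 and 8.04 on the paraquat arrays, against 8.93, 9.00, 9.18, 9.12 and 8.89 on the ctrl arrays. It fell by 0.78 ± 0.12 (adjusted p = 0.00108), and the groups did not overlap. A row assigned to POLA1, the catalytic subunit, and to the small RNA gene SCARNA23 had a change of -0.82 ± 0.15 (adjusted p = 0.0031). POLD2, a small subunit of polymerase delta, read 8.76, 8.71, 8.97, 8.77 and 8.74 on the paraquat arrays, against 9.44, 9.34, 9.54, 9.51 and 9.29 on the ctrl arrays. The groups were well apart, and the change was -0.63 ± 0.09 (adjusted p = 0.000391). POLD3 and the catalytic POLD1 passed narrowly, at -0.53 ± 0.16 and -0.31 ± 0.10 (adjusted p = 0.0383 and 0.0473). The call of POLD1 ended, with adjusted p between 0.062 and 0.108, when any 1 of paraquat 8, 12, 14, 18 or 20 or ctrl 13, 17 or 19 was left out. That of POLD3 ended without ctrl 11, 13 or 17 or without paraquat 12, 18 or 20 (adjusted p between 0.059 and 0.0957).

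The clamp loader opens PCNA and places it on primed DNA. Of its subunits RFC5 fell, with values of 8.04, 8.11, 8.12, 7.95 and 7.80 on the paraquat arrays, against 8.46, 9.05, 8.55, 8.60 and 8.51 on the ctrl arrays, a change of -0.63 ± 0.12 (adjusted p = 0.00383). The other subunits had negative changes that did not pass. RFC1, the large subunit, had a change of -0.11 ± 0.14 (interval -0.42 to 0.19), which lay between -0.24 without paraquat 14 and -0.05 without paraquat 12. RFC2, RFC3 and RFC4 had changes of -0.29, -0.25 and -0.40 (adjusted p = 0.297, 0.138 and 0.262). Ctrl 11 stood apart as the highest ctrl array in RFC2 and RFC4, and without it their changes were -0.13 and -0.21. PCNA had no row of its own. A row assigned to PCNA and its antisense gene PCNA-AS1 averaged 10.31 ± 0.23 in paraquat-treated cells and 10.61 ± 0.38 in ctrl cells (SD, n = 5 each), and its change of -0.30 ± 0.18 did not pass (adjusted p = 0.301).

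Replication protein A coats single-stranded DNA behind the helicase. Its large subunit RPA1 read 9.82, 10.03, 10.12, 9.97 and 9.90 on the paraquat arrays, against 10.07, 10.26, 10.35, 10.37 and 10.47 on the ctrl arrays. Ctrl 7 lay below paraquat 14, so the groups overlapped, and the change was -0.34 ± 0.10 (adjusted p = 0.029). This call ended without paraquat 8, 18 or 20 or ctrl 13, 17 or 19 (adjusted p between 0.0552 and 0.0744). RPA2 had a change of -0.11 ± 0.15 (interval -0.43 to 0.22), which was 0.03 without ctrl 11. LIG1, the ligase that seals Okazaki fragments, had a change of -0.12 ± 0.08 (interval -0.29 to 0.05). FEN1, the flap nuclease that prepares the same ends, and RPA3 had rows only together with other genes. The row of FEN1 and FADS2 had a change of -0.95 ± 0.19 (adjusted p = 0.004), and that of RPA3 and UMAD1 one of -0.36 ± 0.07 (adjusted p = 0.00441).

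Nucleotide supply was split between 1 large decrease and smaller ones. RRM2 (transcript cluster 2469252) read 10.69, 11.04, 10.78, 9.95 and 10.03 on the paraquat arrays, against 12.25, 12.50, 12.10, 12.10 and 12.14 on the ctrl arrays. It was among the brightest rows of the array in both groups, with means of 10.50 ± 0.48 in paraquat-treated cells and 12.22 ± 0.17 in ctrl cells (SD, n = 5 each), and the change was -1.72 ± 0.20 (adjusted p = 0.000164). Paraquat 18 and paraquat 20 were the lowest arrays, about a log2 unit under paraquat 12. RRM1, the large subunit of ribonucleotide reductase, read 9.35, 9.50, 9.55, 9.09 and 9.19 on the paraquat arrays, against 9.58, 10.30, 9.69, 9.73 and 9.65 on the ctrl arrays. Its groups did not overlap, yet the change of -0.45 ± 0.15 did not pass (adjusted p = 0.052), and passed without paraquat 14 (-0.51, adjusted p = 0.0462). TK1, the thymidine kinase of the salvage pathway, read 9.86, 9.81, 9.93, 9.55 and 9.49 on the paraquat arrays, against 10.18, 10.41, 10.52, 10.49 and 10.17 on the ctrl arrays, a change of -0.63 ± 0.12 (adjusted p = 0.00296). The groups did not overlap in TK1. TYMS, which makes thymidylate anew, read 10.37, 10.66, 10.54, 10.37 and 10.38 on the paraquat arrays, against 10.50, 11.09, 10.71, 10.71 and 10.60 on the ctrl arrays. Its change of -0.26 ± 0.12 did not pass (adjusted p = 0.161), and was -0.17 without ctrl 11. DUT, which clears dUTP and yields the precursor of thymidylate, had a change of -0.60 ± 0.20 (adjusted p = 0.0602), and passed without paraquat 12 (-0.73, adjusted p = 0.0253).

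All 4 genes that act behind the fork fell. UHRF1 (transcript cluster 3817698) read 7.18, 7.07, 7.27, 6.99 and 6.89 on the paraquat arrays, against 8.38, 8.34, 8.56, 8.57 and 8.55 on the ctrl arrays. The lowest ctrl array was more than a log2 unit above the highest paraquat array, and the change was -1.40 ± 0.10 (adjusted p = 3.53e-06). DTL, the substrate receptor of the ubiquitin ligase that destroys CDT1 during S phase, read 10.14, 9.56, 10.21, 9.37 and 9.55 on the paraquat arrays, against 10.81, 10.56, 10.65, 10.71 and 10.48 on the ctrl arrays. It fell by 0.88 ± 0.17 (adjusted p = 0.00335). CHAF1A and CHAF1B are subunits of the chromatin assembly factor that deposits histones on new DNA. CHAF1B read 7.41, 7.44, 7.45, 7.41 and 7.17 on the paraquat arrays, against 7.89, 7.93, 8.04, 8.04 and 8.21 on the ctrl arrays. It fell by 0.64 and CHAF1A by 0.59 (adjusted p = 0.000503 and 0.007), and in both genes the groups did not overlap.

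Partner genes of 1 complex or step were then compared within arrays, to ask whether their changes differed. MCM8 and MCM2 were also listed as a pair, though they are not such partners. The pairs were chosen with earlier results of these data known, so the p-values below are no independent test. Of 15 listed pairs 13 had rows for both genes, and the difference between the genes on each array was compared between groups with an exact two-sided permutation test, adjusted over the 13 pairs. The smallest p that 5 against 5 arrays can give is 0.00794. Differences passed in 5 pairs. GMNN changed by 1.51 log2 units more in the negative direction than CDT1 (exact permutation p = 0.00794, adjusted p = 0.0258), RRM2 by 1.27 more than RRM1 (exact permutation p = 0.00794, adjusted p = 0.0258), PRIM1 by 0.90 more than PRIM2 (exact permutation p = 0.00794, adjusted p = 0.0258) and ORC1 by 0.34 more than ORC2 (exact permutation p = 0.00794, adjusted p = 0.0258). In these 4 pairs the groups did not overlap. POLD1 differed from POLD2 in the other direction, by 0.33 (exact permutation p = 0.0159, adjusted p = 0.0413), with overlapping groups.

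Differences in the other 8 pairs did not pass, which does not show that the genes of those pairs changed alike. TK1 differed from TYMS by -0.37 (exact permutation, adjusted p = 0.0516), MCM8 from MCM2 by 0.26 (adjusted p = 0.147) and POLE2 from POLE by -0.52 (adjusted p = 0.252). CHAF1B and CHAF1A differed by -0.05 (adjusted p = 0.675). Several of these sizes moved with single arrays. With arrays left out, POLE2 minus POLE lay between -0.70 and -0.26, with -0.26 without ctrl 11, and CHAF1B minus CHAF1A between -0.13 and 0.02. With 1 array left out the smallest possible p is 0.0159, and no pair passed without paraquat 8, 18 or 20 or without ctrl 7, 13 or 17 (adjusted p of the 4 pairs without overlap 0.0516). Without ctrl 11 TK1 and TYMS passed in place of POLD1 and POLD2, and without paraquat 12 MCM8 and MCM2 did. With 1 array or both ctrl 11 and paraquat 12 left out, GMNN minus CDT1 stayed between -1.63 and -1.30 and RRM2 minus RRM1 between -1.42 and -1.18.

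**Figure D3:**
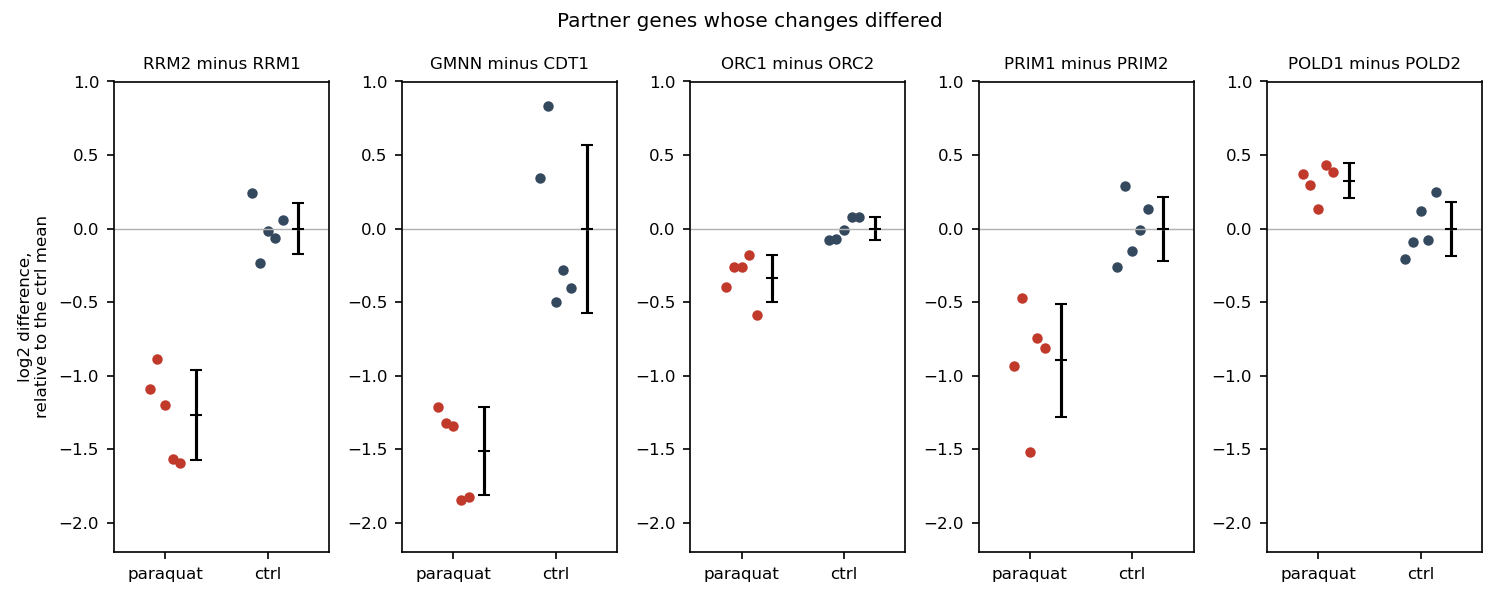
Difference between 2 partner genes on each array, in log2 units relative to the mean of the ctrl arrays, paraquat left of ctrl, with the mean and SD of the 5 arrays as black bars. In the first 4 pairs all paraquat arrays lie below all ctrl arrays, and POLD1 minus POLD2 is higher in paraquat-treated cells by 0.33.

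Other genes of DNA replication and nucleotide supply, listed beside the 51, were measured in 41 of 52 cases. Of these 17 fell and 1 rose, against 11.5% lower and 8.51% higher among all rows. Their median was -0.30, and -0.20 without ctrl 11. In replication itself 12 of 26 fell and 0 rose. The largest decreases were in TOP2A, the topoisomerase that separates sister chromatids (-1.78), CDC7, the kinase that fires origins (-1.78), TICRR, which helps load CDC45 (-1.43), and the histone chaperone ASF1B (-1.16), with adjusted p of 1.94e-05, 0.000205, 8.50e-05 and 0.000302.

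In nucleotide supply 5 of 15 further genes fell and 1 rose, and a count of 1 higher in 15 is no more than the 8.51% of all rows. DCTPP1, a pyrophosphatase that cleans the nucleotide pool, fell by 0.92, SHMT1, which feeds folate to thymidylate synthesis, by 0.88, PAICS, of purine synthesis, by 0.84 and DHODH, of pyrimidine synthesis, by 0.71 (adjusted p = 0.000723, 0.000158, 0.00168 and 0.00065). The gene that rose was RRM2B, the p53-induced form of the small subunit of ribonucleotide reductase. It read 8.93, 8.53, 9.06, 8.72 and 8.97 on the paraquat arrays, against 7.85, 7.71, 7.89, 7.99 and 7.83 on the ctrl arrays. The groups did not overlap, and its change of 0.99 ± 0.11 (adjusted p = 0.000108) was opposite in sign to that of RRM2. Levels of RRM2 and RRM2B cannot be compared with each other, because their probes differ.

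Within a group, the same arrays were often the highest or the lowest. Ctrl 11 was the highest ctrl array in 26 of the 46 genes and ctrl 19 the lowest in 22. Paraquat 14 was the highest paraquat array in 24 genes and paraquat 18 the lowest in 23. Paraquat 20 was the lowest in a further 11 genes and the highest in 0. In 31 of the 46 genes both paraquat 18 and paraquat 20 lay below all the other paraquat arrays. Relative to the ctrl mean, the means of the 7 roles lay between -1.05 and -0.08 on the paraquat arrays and between -0.23 and 0.40 on the ctrl arrays, or at most 0.13 without ctrl 11. Ctrl 11 also had the widest residuals over all rows (SD 0.358, against 0.215 to 0.274 on the other ctrl arrays). Without ctrl 11 the count of genes that fell was 27 and the median change -0.51. Without both ctrl 11 and paraquat 12 it was 29, with a median of -0.57.

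**Figure D4:**
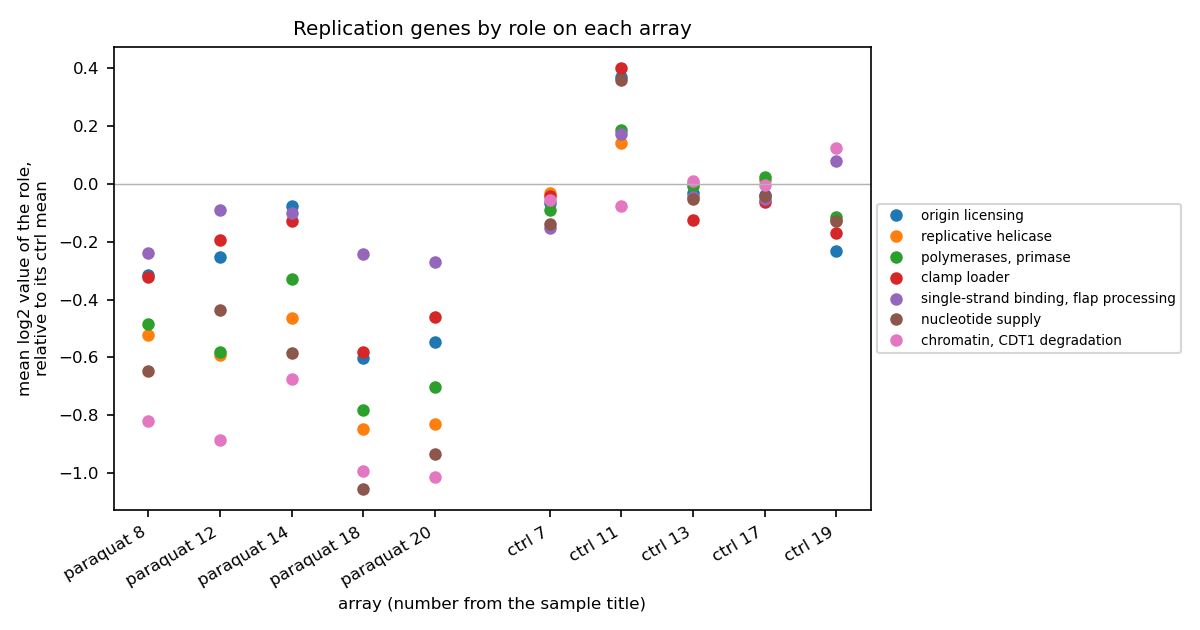
Mean log2 value of the genes of each role on each array, relative to the mean of that role over the ctrl arrays (colours mark roles, title numbers mark arrays). Paraquat arrays, at the left, lie between -1.05 and -0.08, and ctrl 11 stands above the other ctrl arrays in 6 of the 7 roles.

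Other gene lists were compared between the same groups of arrays. Among all rows 11.5% were lower and 8.51% higher at the same threshold. All 18 measured genes of G2 and mitosis fell (median -1.54), led by HMMR (-2.80) and MKI67 (-2.38), and 7 of 8 measured sympathetic neuroblast markers fell (median -0.70), led by CHGA (-1.66) and ISL1 (-1.21). All 8 measured p53 targets rose (median 1.48), led by FAS (2.81) and CDKN1A, an inhibitor of cyclin-dependent kinases (2.47). RRM2B, given above with nucleotide supply, is 1 of these 8. The cell type markers PHOX2A, GATA3 and ISL1 averaged 8.89, 9.21 and 8.74 in paraquat-treated cells, against 9.97, 9.96 and 9.95 in ctrl cells, and all 3 fell (-1.08, -0.75 and -1.21), while TH, tyrosine hydroxylase, averaged 6.25 ± 0.12 in paraquat-treated cells and 6.31 ± 0.04 in ctrl cells (SD, n = 5 each). Of 3 measured leukocyte markers 1 rose, CD14 (0.64), whereas PTPRC averaged 2.72 ± 0.09 in paraquat-treated cells and 2.67 ± 0.08 in ctrl cells (SD, n = 5 each) and CD3E 2.87 ± 0.05 in paraquat-treated cells and 2.84 ± 0.18 in ctrl cells (SD, n = 5 each), near the bottom of the scale. The mean of these 3 markers ranged from 3.70 to 3.91 on paraquat arrays and from 3.48 to 3.70 on ctrl arrays. Of 8 mesenchymal markers 2 rose, SNAI2 (1.97) and CD44 (1.67), and 1 fell, TWIST1 (-0.59). That 1 gene is 12.5% of the list, near the 11.5% of all rows. The part of any of these shifts in the replication genes was not tested.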

How the data were processed

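RNA of 10 SH-SY5Y samples was measured on Affymetrix exon arrays. The authors' deposited table holds log2 values made by RMA, per the submitters' processing notes, and the notes name no software, summary level or genome build. Array medians lay between 6.78 and 6.93. The number of arrays, 5 a group, limits the precision, and no column of the table was left unused (0 columns).

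The values were used as deposited. A limma 3.58.1 model (R 4.3.3) with group as the only term was fitted to all 22011 rows, without a filter, with Benjamini-Hochberg adjustment across the whole table. The fit was tested on simulated data with known changes. Partner genes were compared by exact two-sided permutation tests. Genes were named from the platform annotation, which can be old. All 46 measured genes matched RefSeq, and the other 5 of the 51 listed had only rows shared with other genes. The genes, lists and pairs were chosen with earlier results of these data known. Array values are given for up to 4 called genes of each role with the largest changes and up to 2 genes of the role with the smallest changes, called or not. ORC3 was added after its values were seen. Up to 4 genes of each other replication or nucleotide list were named in each direction. Other scalings, weights, filters, a block and left-out arrays were tried.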

Additional observations from a re-analysis of the deposited data

Results flagged for a closer look

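In 92 groups of 5 arrays, 1 for each of the 46 genes in each condition, the highest or lowest array was tested for a gap to its nearest neighbour, and 10 values stood apart. Chance marks about 1 in 20 such groups. Of the 10 values, 7 were on ctrl 11. There PRIM1 read 9.27, RFC2 10.62, RFC4 9.88, RFC5 9.05, RPA2 8.15, RRM1 10.30 and DUT 8.75, each the highest ctrl value. The others were RFC1 at 9.09 on ctrl 7, the highest ctrl value, POLD2 at 8.97 on paraquat 14, the highest paraquat value, and CHAF1B at 7.17 on paraquat 20, the lowest paraquat value.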

How the results depend on the processing

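Of the 27 genes that fell, 24 did so under all 18 alternatives at the same threshold, and the exceptions were POLD1, POLD3 and RPA1. At an adjusted p under 0.01, 23 genes fell, since POLE2 was lost with these 3. Of the 19 others, 9 passed under at least 1 alternative. No change of a called gene turned direction. With 1 array left out, 24 to 30 genes fell and 0 to 1 rose, with a median change of -0.62 to -0.49. Among the other replication and nucleotide genes 14 to 17 fell and 1 rose, with a median of -0.34 to -0.20, the value nearest 0 being that without ctrl 11. The gene that rose among the 46 was ORC3, so that 1 gene was higher after quantile normalization, centring on array medians, array weights, or without both ctrl 11 and paraquat 12 (adjusted p = 0.0309, 0.0464, 0.022 and 0.0155). Quantile normalization raised the other genes that rose to 2, by adding TK2 (0.27, adjusted p = 0.0489). The cause was not tested. Partner pairs that passed numbered 0 to 5 with 1 array left out and 0 without both ctrl 11 and paraquat 12, where fewer arrays raise the smallest possible p to 0.0286. Consecutive title numbers correlated at 0.09 to 0.46, with 4 of 5 above 0.1, and other ctrl and paraquat numbers at -0.36 to 0.32. Because not all 5 were above 0.1, consecutive numbers were not taken to pair the samples. A pairing is not excluded, and the permutation tests took no account of one. With consecutive numbers as a replicate block 32 genes fell and 0 rose. There POLD3 was lost, and ORC6, MCM8, POLE, RFC4, RRM1 and DUT passed. Of the other genes 18 fell and 1 rose with this block.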
